A study of Homo sapiens with 6 samples.

Results

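The genes described here are the very long protein-coding genes of the autosomes, those whose annotated end lies 800 kb or more beyond their start in GENCODE 44 on hg38. Of 19111 autosomal protein-coding genes, 122 reached that length, 6 were set aside by name because they belong to other gene groups, and 116 were described. Their bodies add up to 134.4 Mb, or 4.67% of autosomal length (unsequenced gaps included), with overlapping genes counted once. The measurement is the share of each gene body that lies in domains of H3K9me3, the histone mark of constitutive heterochromatin, in 4 chromatin immunoprecipitation sequencing (ChIP-seq) libraries. The cells were MCF10.DCIS.com, a human breast line that models ductal carcinoma in situ. All groups were monolayers of this line infected with lentiviral pSLIK vectors and selected as stable inducible lines. Control cells carried the empty vector, and RAB5A cells carried inducible RAB5A, a GTPase of early endosomes that fluidizes jammed monolayers. The labels describe the RAB5A libraries as RAB5A overexpression. In the paper the gene is induced with doxycycline, and its ChIP-seq methods give no dose or time. Each condition was assayed once with antibody ab176916 and once with ab8898, so n = 2 per condition and the antibody is the only replicate. The lists hold 76 to 79 domains each, 68 to 71 of them on autosomes, and give no read depth. Nothing in the labels says that the libraries came from separate cultures, so the spread between them may be technical. The lists hold domains alone, so the identity of the cells could not be checked against marker genes.

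Many human genes of this length are expressed mainly in neurons and encode adhesion molecules, guidance receptors, ion channel subunits and synaptic scaffolds. Nearly all of their length is intron, and several of them lie in common fragile sites, where chromosomes break under replication stress. H3K9me3 is bound by HP1 proteins and marks silent, compact chromatin, which in many cell types lies at the nuclear lamina.

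Of the 116 very long genes, 13 lay wholly inside domains in all 4 libraries, 8 were covered in part or in some libraries, and 95 had no base in a domain of any library. Thus 21 genes (18.1%) met a domain, against 4.99% of all autosomal protein-coding genes. Whole coverage in all 4 libraries was found for 11.2% of very long genes and for 4.04% of all. A longer body meets a domain more readily, so the annotated start of the gene was taken as a measure that does not grow with length. The start lay in a domain in all 4 libraries for 15 very long genes (12.9%), against 4.16% of all genes. The median covered share was 0% both over the very long genes and over all genes, in each library. The 3 shortest members, at 800.6 to 814.5 kb, and the 3 genes just under the limit, at 788.2 to 795.0 kb, were all uncovered.

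Coverage was largely all or none. In control cells, 20 very long genes (17.2%) met a domain with ab176916 and 19 (16.4%) with ab8898, against 4.54% and 4.83% of all genes. In RAB5A cells, 18 (15.5%) met a domain with ab176916 and 19 (16.4%) with ab8898, against 4.59% and 4.8% of all genes. Of the genes met, 15 were wholly inside domains in the control ab176916 library and 14 in each of the others. The median covered share of a gene that met a domain was 100% in every library. The share was identical in all 4 libraries for 15 of the 21 genes and differed among them for 6. The plot of shares by gene and library shows which these were.

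**Figure D1:**
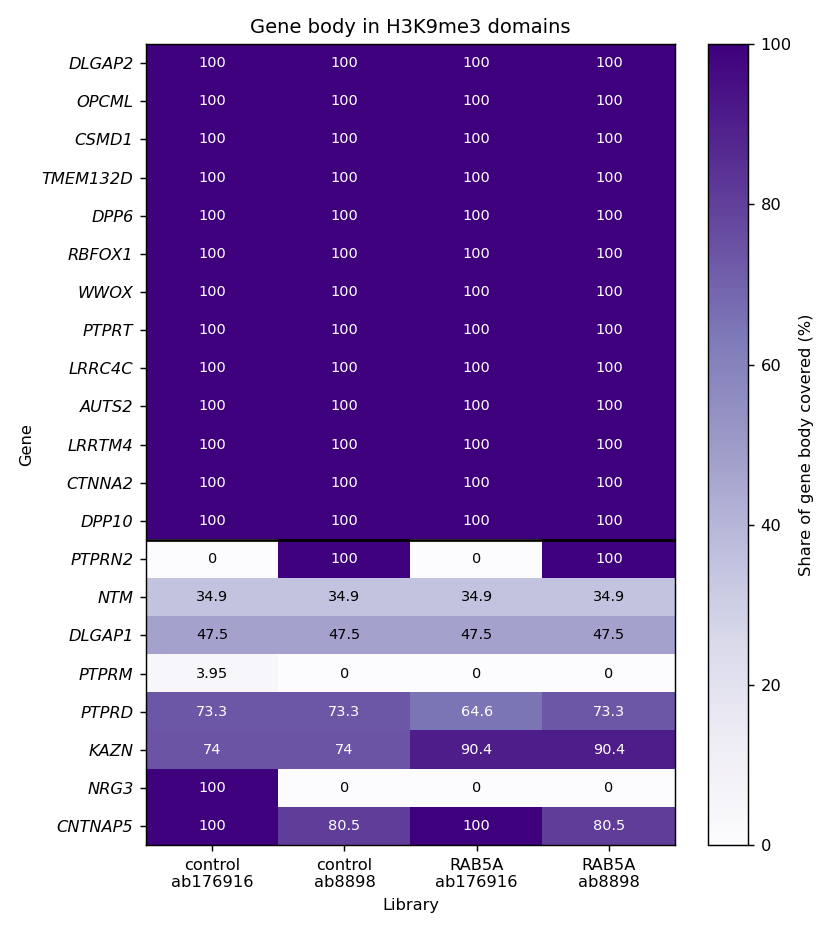
Share of the gene body in H3K9me3 domains (%, printed and shaded) for the 21 very long genes that met a domain, in rows, in each of the 4 libraries, in columns. The 13 genes above the line were at 100% in every library; of the 8 below it, KAZN alone was higher in both RAB5A than in both control libraries.

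The wholly covered genes included the longest member, RBFOX1, which encodes an RNA-binding regulator of splicing in neurons and muscle. It spans chr16:5239802-7713340 (2.47 Mb) and was covered at 100% in all 4 libraries by a domain of 3.6 Mb, chr16:5000001-8600000, of which the gene made up 68.7%. CSMD1, which encodes a large membrane protein with CUB and sushi domains, spans chr8:2935353-4994972 (2.06 Mb). It was covered at 100% in all 4 libraries. DLGAP2, a scaffold protein of the postsynaptic density, lies at chr8:737628-1708476, 0.738 Mb from the first base of the chromosome. It too was at 100% in each library. The control ab8898 library spanned CSMD1 and DLGAP2 with 1 domain of 6.2 Mb, where the other 3 libraries called 2 domains.

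Both members that encode dipeptidyl peptidase-like proteins, which are accessory subunits of Kv4 potassium channels, were wholly covered in all 4 libraries. DPP6 lies at chr7:153748133-154894285, 4.45 Mb from the end of its chromosome. DPP10 lies at chr2:114442299-115845780, far inside chromosome 2, in a domain of 3.8 Mb (chr2:114000001-117800000) with identical edges in the 4 libraries. That domain touched no other protein-coding gene. KCNIP4, which encodes a further Kv4 subunit, was at 0% in all 4 libraries.

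LRRTM4 and CTNNA2 were covered by the same domain, which ran from chr2:76000001 to 81200000 in both ab176916 libraries. It began at 76600001 in the control ab8898 library and at 75800001 in the RAB5A ab8898 library. LRRTM4 encodes a leucine-rich repeat protein of the synapse and CTNNA2 an alpha-catenin of neurons, which links cadherins to actin. LRRC4C, whose product binds netrin-G1, was at 100% in all 4 libraries, in domains of 4.2 to 5.2 Mb. OPCML, an adhesion molecule of the IgLON family, was at 100% in all 4 libraries. TMEM132D, which encodes a single-pass membrane protein, was at 100% in a domain of 6.6 Mb, chr12:125200001-131800000, with the same edges in each library. By the authors' score, that domain stood at the 96.2 to 98.7 percentile of its own list.

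AUTS2, a regulator of transcription and neuronal development, was at 100% in all 4 libraries. Its domain, chr7:67200001-72600000 (5.4 Mb), had the same edges in each and stood at the 93.4 to 94.9 percentile by score. WWOX, an oxidoreductase at a common fragile site, was at 100% in domains of 2 to 2.2 Mb, at the 31.6 to 40.5 percentile. PTPRT, a receptor-type tyrosine phosphatase, was at 100% in domains of 1.8 to 2 Mb, at the 43.6 to 50 percentile.

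The 21 genes shared domains, so that they are not 21 separate events. In each library 16 or 17 autosomal domains touched a very long gene. Those domains had a median length of 2.8 to 3.6 Mb, against 2.2 Mb for the other autosomal domains. They held a median of 1.30 to 1.59 protein-coding starts per Mb, against 1.75 to 2.17 in the others. A longer domain meets a gene more readily, and a very long gene can fill much of its domain. The way the domains were sorted thus favours both differences, which were not tested. Very long genes took up 10.6% to 11.4% of the autosomal length called in the 4 libraries.

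Functional lists were set from textbook roles, with earlier results of these data known, and are given as counts, to be read beside the 18.1% of all very long genes and 4.99% of all genes that met a domain. Of 26 neuronal and synaptic adhesion and guidance receptors, 6 met a domain and 20 did not. The 6 were LRRTM4, LRRC4C, OPCML and TMEM132D, all wholly covered, and CNTNAP5 and NTM, covered in part. Of 17 genes in a list of junction and synapse scaffolds that also holds the neuregulins and their receptor ERBB4, 5 met a domain. These were KAZN, CTNNA2, DLGAP1 and DLGAP2, and the neuregulin NRG3. Of 7 ion channels and accessory subunits, 2 did, the DPP genes. Of 12 RNA-binding and transcription regulators in the list, 2 did, RBFOX1 and AUTS2. That list leaves out RARB, a retinoic acid receptor at 0% in every library. All 4 receptor-type tyrosine phosphatases met a domain in at least 1 library, but in all 4 libraries only PTPRD and PTPRT did. Of 25 genes at common fragile sites, 3 met a domain (AUTS2, CSMD1 and WWOX) and 22 did not. Of 3 genes for CUB-sushi proteins and lipoprotein receptors, CSMD1 met one. Of 7 signalling enzymes and their anchors and of 2 genes for heparan sulfate proteoglycans or their enzymes, none met a domain. The 28 genes in no list met none either, but every gene that met a domain had been put in a list. With earlier results known when the lists were set, that count follows from the lists and is no result about function. Some genes stand in more than 1 list. The lists are not complete, and TMEM132D, described above only as a membrane protein, is counted with the adhesion receptors. Counts can therefore lean towards covered genes.

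Close relatives could fall on either side. The families below were picked after their values were seen. Of the 4 IgLON adhesion genes, OPCML was wholly covered, NTM was covered in part, and LSAMP and NEGR1 were at 0% in all 4 libraries. CTNNA2 was wholly covered and CTNNA3 was at 0%. CSMD1 was wholly covered and CSMD3 was at 0%. CNTNAP5 was covered in part or whole in all 4 libraries, and CNTNAP2, a Caspr-family gene of axons, was at 0%. LRRTM4 and LRRC4C were wholly covered, whereas LINGO2 was at 0%. The 2 roundabout receptors (ROBO1 and ROBO2), the 2 glypicans (GPC5 and GPC6), the 2 sarcoglycans (SGCD and SGCZ), the 2 metabotropic glutamate receptors (GRM7 and GRM8) and the 2 classical cadherins (CDH12 and CDH18) were at 0% in every library.

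The position of covered and uncovered genes along the chromosome was compared next. Distance was taken from the nearer edge of the gene to the nearer end of its chromosome. Its median was 11.1 Mb for the 13 wholly covered genes (0.738 to 114.4 Mb), 7.94 Mb for the 8 partly covered genes (0.758 to 117.3 Mb) and 32.9 Mb for the 95 others (3.30 to 108.6 Mb). Of the 21 genes that met a domain, 8 (38.1%) lay within 5 Mb of an end, and of the 95 that did not, 1 did. The 8 were DLGAP2, PTPRN2, OPCML, NTM, CSMD1, TMEM132D, DLGAP1 and DPP6. The 1 uncovered gene was SDK1, an adhesion molecule of synapses, 3.30 Mb from the end of chromosome 7 and 51.3 Mb from the nearest domain. A further 8 covered genes lay over 20 Mb from an end, so nearness to an end was not shared by all of them. The plot of length against distance shows both groups.

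**Figure D2:**
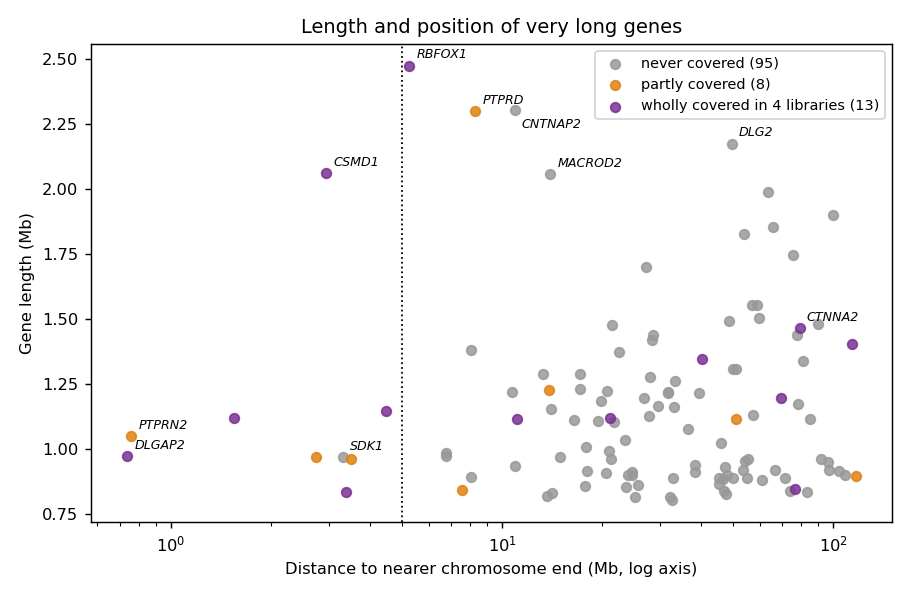
Gene length (Mb) against distance to the nearer chromosome end (Mb, log axis) for the 116 very long genes, coloured by coverage. Left of the dotted line at 5 Mb, 8 of 9 genes met a domain; further inside, wholly covered genes lie among uncovered ones of similar length.

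Chromosome ends were also richer in domains for other genes, so the very long genes were set beside all genes at matched distance. Within 5 Mb of an end, 8 of 9 very long genes (88.9%) met a domain, against 352 of 2373 genes of any length (14.8%). Among the 8, PTPRN2 met a domain with ab8898 only, and NTM and OPCML lie in a shared domain in every library. At 5 to 20 Mb, 5 of 26 (19.2%) met a domain, against 6.21%. Beyond 20 Mb, 8 of 81 (9.88%) did, against 2.53%. The share with the start in a domain in all 4 libraries was 66.7%, 11.5% and 7.41% of very long genes in these bins, against 12.1%, 5.41% and 2.07% of all genes. By length, domains covered 68.7% to 79.1% of very long gene bodies within 5 Mb of an end. They covered 19.4% to 20.3% of the outermost 5 Mb of chromosome length, in which unsequenced gaps are counted. Genes were binned by their nearer edge and counted whole, so a body such as that of DPP6 can reach beyond its bin. At 5 to 20 Mb the values were 19.1% to 19.7%, against 8.85% to 9.37%. Beyond 20 Mb they were 8.81% to 10.2%, against 4.63% to 4.93%. These are descriptions of the same genes and domains, and no test over genes was made.

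**Figure D3:**
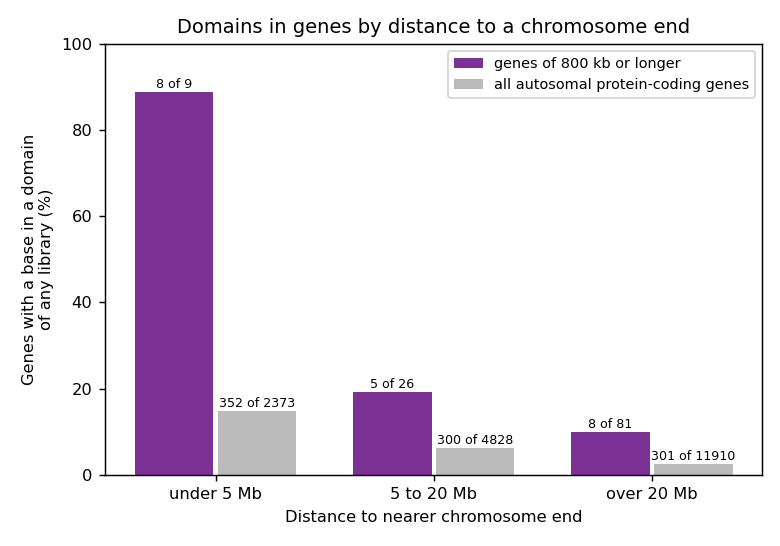
Percentage of genes with a base in a domain of any library, for the very long genes and for all autosomal protein-coding genes, in 3 bins of distance to the nearer chromosome end. Numbers above the bars are genes met of genes in the bin; in both sets the share is highest under 5 Mb, where 8 of 9 very long genes met a domain.

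Coverage was then set beside that of shorter genes. Domains covered 16.8% and 16.5% of very long gene bodies in the control libraries and 15.9% and 16.7% in the RAB5A libraries (ab176916 and ab8898). For genes of 400 kb to under 800 kb the values over the 4 libraries were 3.98% to 4.35%. For genes of 200 kb to under 400 kb they were 3.17% to 3.28%, and for shorter genes 3.08% to 3.40%. Domains covered 6.80% to 7.01% of the autosomes as a whole, unsequenced gaps included. The share of genes within 5 Mb of an end was 7.76% for very long genes, 6.28% and 5.26% for the next classes and 13.0% for genes under 200 kb. From the longest class down it fell as coverage did, except in the shortest class, where it was highest. Its relation to coverage was not tested.

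**Figure D4:**
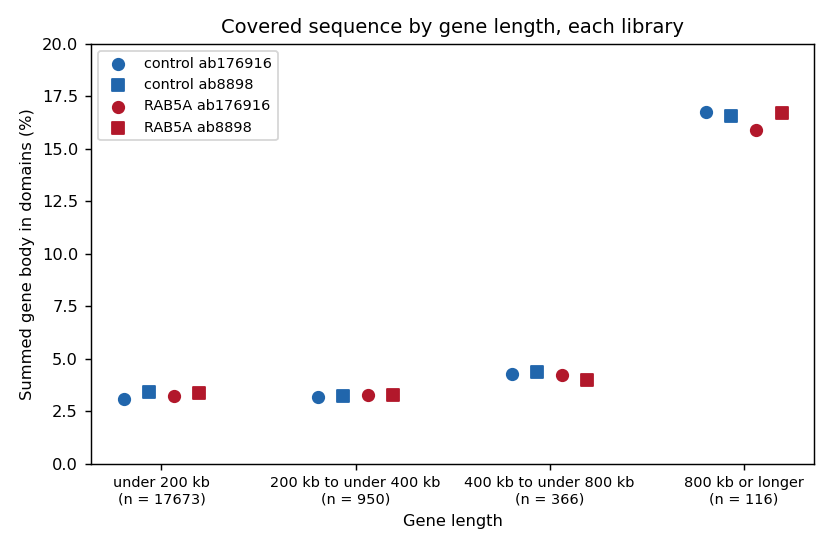
Percentage of summed gene body in H3K9me3 domains for 4 classes of gene length; each point is 1 library (blue, control; red, RAB5A; circles, ab176916; squares, ab8898). Genes of 800 kb or longer sit between 15.9% and 16.8%, and the other classes between 3.08% and 4.35%.

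The uncovered genes included CNTNAP2, the longest gene after RBFOX1. CNTNAP2 (2.30 Mb, chr7:146116002-148420998) lay 3.78 Mb from the nearest domain, and DLG2, a synaptic scaffold of 2.17 Mb, lay 26.9 Mb away. MACROD2 (2.06 Mb), a hydrolase gene at a fragile site, lay 13.3 Mb from a domain. EYS (1.99 Mb), a gene of photoreceptors, lay 102.3 Mb away in 3 libraries, and the control ab8898 library had no domain on its chromosome. These and the following distances are the shortest over the 4 libraries. LRP1B (1900 kb), a lipoprotein receptor, CTNNA3 (1.85 Mb), and PCDH15 (1.83 Mb), a protocadherin of hair cells, lay 10.2, 12.8 and 15.2 Mb away. For CTNNA3 this was the NRG3 domain of the control ab176916 library, and its nearest domain in the other 3 libraries was 27.3 Mb away. ROBO2 (1.74 Mb) lay 48.7 Mb from a domain of the RAB5A ab176916 library and 71.5 Mb in the other 3. NRXN3 (1.70 Mb) lay 16.7 Mb and PDE4D (1.55 Mb), a cAMP phosphodiesterase, 50.2 Mb from the nearest domain. The median over the uncovered genes was 19.6 Mb for those on a chromosome with a domain. The other 9 lie on chromosome 4, which had none. Chromosomes 3 and 4 together hold 27 very long genes and none met a domain. Chromosome 3 had 2 domains in the RAB5A ab176916 library and 1 in each of the others, so there was little to meet. Of 20 chromosomes with a very long gene, 11 had one that met a domain.

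Besides SDK1, the uncovered genes close to a chromosome end included GRM7 (6.77 Mb), CAMTA1 (6.79 Mb) and PLCB1 (8.08 Mb). CAMTA1 encodes a calmodulin-binding transcription activator and PLCB1 a phospholipase. Those closest to a domain were RARB, CAMTA1, a gene with no symbol (ENSG00000283563) that overlaps RBMS3, RBMS3 itself, and CTNND2. RARB, a retinoic acid receptor, lay 0.202 Mb from a domain called in the RAB5A ab176916 library alone. In the other 3 libraries its nearest domain was 20.3 Mb away. The same single domain stood nearest to RBMS3, which encodes an RNA-binding protein, at 1.37 Mb. CTNND2, which encodes delta-catenin, lay 2.17 Mb from a domain in both RAB5A libraries and 4.37 Mb in both control libraries. CAMTA1 lay 0.785 Mb from a domain with ab8898 and 0.985 Mb with ab176916, in both conditions.

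Sequence properties of the 3 classes were also compared. The median GC content of the gene body was 41.8% in wholly covered genes (35.0% to 47.9%), 39.9% in partly covered genes (35.5% to 51.4%) and 37.0% in uncovered genes (33.7% to 48.0%). The ranges overlap throughout. The number of other protein-coding starts in or within 1 Mb of the gene had a median of 7 in wholly covered genes, 5.5 in partly covered genes and 7 in uncovered genes. Exons of the canonical transcript made up a median of 0.425%, 0.479% and 0.649% of the body in the 3 classes.

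Of the 8 partly covered genes, 5 met a domain in all 4 libraries, namely KAZN, NTM, DLGAP1, PTPRD and CNTNAP5. Domain edges are known to 200 kb, and all 8 edges found inside a very long gene fell in introns of the canonical transcript. Exons made up a median of 0.479% of the body of partly covered genes, so an edge at almost any position would fall in an intron. The covered share of exon bases could differ widely from that of the body. In NTM, an IgLON gene at chr11:131370478-132336822, domains in all 4 libraries began at position 132000001, in intron 2, and ran past the end of the gene. They covered 34.9% of the body and 87.8% of exon bases, 7 of 9 exons. In DLGAP1, at chr18:3496032-4455307 on the minus strand, the edge lay in intron 3 in all 4 libraries and the annotated GENCODE start was covered. There 47.5% of the body and 7.45% of exon bases were in domains. PTPRD, a receptor-type phosphatase of neurons (chr9:8314246-10613002, minus strand), was covered at its far end. The covered share was 73.3% in both control libraries and the RAB5A ab8898 library and 64.6% in the RAB5A ab176916 library, with 94.7% and 93.7% of exon bases. Its annotated start was outside domains in all 4 libraries.

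**Figure D5:**
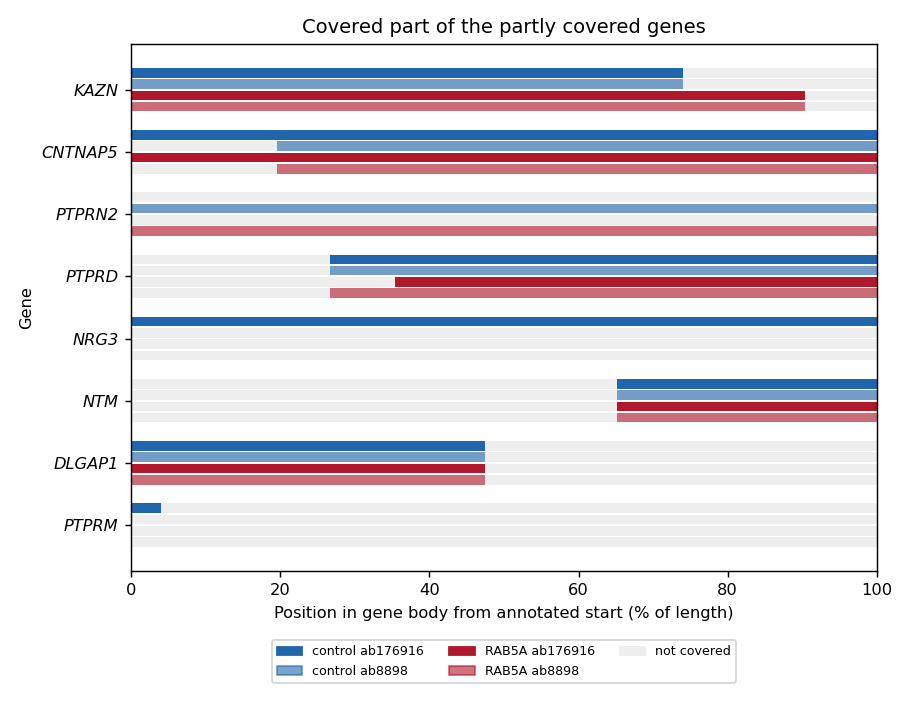
Covered part of the 8 partly covered genes, drawn from the annotated start (0%) to the end (100%) of each gene body, with 1 bar per library (blue, control; red, RAB5A; full colour, ab176916; pale, ab8898). KAZN, DLGAP1 and PTPRM were covered from the start, NTM and PTPRD at the far end.

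KAZN encodes kazrin, a protein of the cornified envelope and desmosomes of keratinocytes, and is the member in which the conditions did not overlap. It lies at chr1:13892792-15118043. The domain over it began at chr1:12600001 in all 4 libraries and ended at 14800000 in both control and at 15000000 in both RAB5A libraries. The covered share was 74.0% in both control libraries and 90.4% in both RAB5A libraries, a difference of 1 bin of 200 kb. Exon bases covered were 8.91% in control and 12.1% in RAB5A cells, or 1 and 2 of 15 exons of the canonical transcript. By score, the domain stood at the 16.7 and 17.1 percentile of the control lists and at the 36.7 and 35.5 percentile of the RAB5A lists. Of the 116 genes, 1 was higher in both RAB5A than in both control libraries, against 0.0523% of all genes (10 of 19111). None was lower in both, against 0.0262% (5 of 19111). A longer body holds a shifting domain edge more readily, and these shares are not matched for length. With 2 libraries per condition, no test of a single gene can reach 0.05.

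Long genes often have several starts, and a domain edge can part them. RefSeq promoter windows (GRCh38, the same build as hg38) were found for 94 of the 116 genes, 56 of them with more than 1 window. The 250 bases before each start were used. In 4 genes, KAZN, NTM, PTPRD and PTPRM, some windows lay in a domain and others outside it in the same library. Both windows of DLGAP1, whose annotated GENCODE start was covered, lay outside domains in all 4 libraries. The windows of KAZN, NTM, PTPRD and OPCML below are shown because an edge, or a neighbour's edge, separates them. CG dinucleotides, which read the same on both strands, are in capitals, and each window is written 5′ to 3′ in the direction of the gene.

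The most upstream KAZN window (chr1:14598435-14598684, plus strand, 25 CG) lay in domains in all 4 libraries. The next one (chr1:14923904-14924153, plus strand, 35 CG) and 2 further windows lay in domains in the 2 RAB5A libraries and outside domains in the 2 control libraries.
KAZN upstream window: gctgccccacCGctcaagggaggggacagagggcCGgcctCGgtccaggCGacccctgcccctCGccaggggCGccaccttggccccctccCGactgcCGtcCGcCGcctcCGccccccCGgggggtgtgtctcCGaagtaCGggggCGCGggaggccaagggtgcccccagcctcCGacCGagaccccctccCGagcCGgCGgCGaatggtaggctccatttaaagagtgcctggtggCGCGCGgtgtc
KAZN second window: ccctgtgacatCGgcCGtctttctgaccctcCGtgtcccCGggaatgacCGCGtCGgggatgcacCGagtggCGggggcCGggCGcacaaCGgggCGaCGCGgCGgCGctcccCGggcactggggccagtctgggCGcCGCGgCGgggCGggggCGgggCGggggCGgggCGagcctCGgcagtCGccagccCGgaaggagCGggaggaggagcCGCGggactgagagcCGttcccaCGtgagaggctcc

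The most upstream NTM window (chr11:131370365-131370614, plus strand, 5 CG) and 3 others lay outside domains in all 4 libraries. The last one (chr11:132211526-132211775, plus strand, 2 CG) lay inside in all 4, as did both windows of its neighbour OPCML, of which the inner one (chr11:132943837-132944086, minus strand, 41 CG) is shown.
NTM upstream window: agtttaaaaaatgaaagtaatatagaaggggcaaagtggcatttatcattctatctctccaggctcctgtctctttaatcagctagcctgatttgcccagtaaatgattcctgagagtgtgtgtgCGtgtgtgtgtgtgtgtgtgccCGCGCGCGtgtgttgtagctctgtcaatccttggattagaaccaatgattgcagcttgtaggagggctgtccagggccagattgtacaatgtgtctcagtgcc
NTM last window: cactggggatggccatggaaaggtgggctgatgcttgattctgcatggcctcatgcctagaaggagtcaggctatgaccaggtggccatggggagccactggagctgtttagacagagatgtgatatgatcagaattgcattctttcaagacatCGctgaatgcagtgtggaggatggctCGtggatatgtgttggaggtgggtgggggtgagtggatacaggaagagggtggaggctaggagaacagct
OPCML inner window: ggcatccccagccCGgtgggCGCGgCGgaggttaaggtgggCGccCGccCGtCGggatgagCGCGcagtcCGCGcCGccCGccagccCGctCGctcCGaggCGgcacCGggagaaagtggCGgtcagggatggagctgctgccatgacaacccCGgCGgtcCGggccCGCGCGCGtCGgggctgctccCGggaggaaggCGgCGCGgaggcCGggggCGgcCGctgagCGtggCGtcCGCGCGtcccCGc

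The most upstream PTPRD window (chr9:10613003-10613252, minus strand, 32 CG) lay outside domains in all 4 libraries. The next (chr9:8779392-8779641, minus strand, 4 CG) lay inside in all 4.
PTPRD upstream window: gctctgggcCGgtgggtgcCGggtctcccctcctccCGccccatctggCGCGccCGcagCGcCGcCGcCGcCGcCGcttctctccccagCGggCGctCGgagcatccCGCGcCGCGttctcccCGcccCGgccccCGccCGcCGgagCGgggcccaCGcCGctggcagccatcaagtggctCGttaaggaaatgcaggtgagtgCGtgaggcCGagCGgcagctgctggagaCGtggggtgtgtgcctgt
PTPRD second window: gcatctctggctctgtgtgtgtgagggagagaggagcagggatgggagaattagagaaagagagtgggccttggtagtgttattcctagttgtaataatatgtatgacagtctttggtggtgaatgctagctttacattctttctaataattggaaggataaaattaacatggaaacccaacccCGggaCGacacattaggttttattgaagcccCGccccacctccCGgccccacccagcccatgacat

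A high CG count was found on both sides of a domain edge. Windows in domains in all 4 libraries (29 windows of 12 very long genes) held a median of 24 CG, and 55.2% of them held 10 or more. Windows outside domains in all libraries (191 windows of 82 genes) held a median of 6 CG, and 41.4% held 10 or more. Over all autosomal protein-coding genes (20584 windows) the median was 17, 96.8% of windows held a CG and 66.3% held 10 or more. For those of them in domains in all 4 libraries (796 windows) the median was 12 and 57.3% held 10 or more, so over all genes the median was lower in domains, whereas over the very long genes it was higher. Windows of 1 gene share sequence and position, and no test was made.

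PTPRN2 and CNTNAP5 differed between the antibodies and not between the conditions. PTPRN2 encodes a phosphatase-like protein of secretory granules and lies at chr7:157539056-158587823, 0.758 Mb from the end of the chromosome. It was at 0% in both ab176916 libraries and at 100% in both ab8898 libraries, in a domain of 1.2 Mb (chr7:157400001-158600000). That domain stood at the 3.95 percentile by score in the control and at the 2.63 percentile in the RAB5A list. CNTNAP5, a Caspr-family gene at chr2:124025287-124921219, was at 100% in both ab176916 libraries and at 80.5% in both ab8898 libraries. Its start lay in the domain with ab176916 only. Among all genes, 0.23% were higher with both ab8898 than with both ab176916 libraries, and 0.0314% the other way. Among the 116 genes it was 1 gene in each direction, again without matching for length.

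The remaining genes were met in 1 library. NRG3, which encodes a ligand of the receptor ERBB4, lies at chr10:81875194-82987179. It was at 100% in the control ab176916 library, in a domain of 3.6 Mb, and at 0% in the other 3 libraries. PTPRM, a phosphatase of cell contacts on chromosome 18, was at 3.95% in the control ab176916 library and at 0% in the others. Its start was reached there because the domain that covers part of DLGAP1 ended 1 bin further than in the other libraries, at position 7600000 in place of 7400000.

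Control and RAB5A cells were then compared over all 116 genes. Domains covered 22.5 and 22.2 Mb of very long gene body in the control libraries and 21.4 and 22.4 Mb in the RAB5A libraries (ab176916 and ab8898). The RAB5A ab176916 library was lowest, and the RAB5A ab8898 library lay between the 2 control libraries. The control mean was 22.4 ± 0.192 Mb and the RAB5A mean 21.9 ± 0.759 Mb (mean ± SD of 2 libraries; p = 0.667 by a two-sided exact permutation test). The smallest p this design allows is 0.333. The difference of -0.473 Mb (RAB5A minus control) was smaller than the spread of the RAB5A libraries. Within ab176916 it was -1.15 Mb, and within ab8898 it was 0.2 Mb. NRG3 gave -1.11 Mb of the former and KAZN the whole of the latter. Control libraries met 19.5 ± 0.707 very long genes on average and RAB5A libraries 18.5 ± 0.707 (mean ± SD of 2 libraries; p = 0.667 by the same exact permutation test). This difference of -1 gene was -2 with ab176916 and 0 with ab8898. Without NRG3 the length difference was 0.0834 Mb, and without the RAB5A ab176916 library it was 0.0644 Mb, so its sign rested on these. Wholly covered genes averaged 14.5 ± 0.707 per control library and 14 ± 0 per RAB5A library, and starts in a domain 17 ± 1.41 and 16 ± 0 (mean ± SD of 2 libraries; p = 1 for both by the same exact permutation test).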

How the data were processed

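Per the study's methods, the authors trimmed single-end reads with Trimmomatic 0.39, aligned them to hg38 with BWA 0.7.17-r1188, marked duplicates with Picard 2.22 and filtered with SAMtools 1.9. They called domains in each library with EDD, with 200-kb bins, the gap penalty set to 25, the required fraction of informative bins to 0.98 and an exclusion list. The deposited lists give positions on hg38 and a score per domain with no stated unit. The score served only to rank or filter domains within a list. The lists carry no depth, so no counting error can be given, and signal below the calling threshold is not visible. Inputs were not used here.

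Covered shares were computed in Python 3.11.15 with NumPy 2.4.6 and SciPy 1.17.1, from GENCODE 44 gene spans. Group means were compared by an exact permutation test over 6 labellings. The coverage step was tested on simulated gene bodies and recovered 100% of 500. Genes named are all that met a domain and, of the others, the 10 longest, the 5 nearest a chromosome end and the 5 nearest a domain, apart from results not reported here. Members and lists were chosen with earlier results of these data known. Replicate numbers stand for the antibody in the labels, which pairs libraries. Deviations from group means correlated within an antibody over the 21 genes met (Pearson's r = 0.731, a description over genes that share domains). Since 15 of these genes had identical shares in all 4 libraries, the value rests on the other 6. Among those 6 is PTPRN2, at 0% with ab176916 and 100% with ab8898 in both conditions.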

Additional observations from a re-analysis of the deposited data

Results flagged for a closer look

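The covered length of very long gene bodies changed sign between antibodies. With ab176916 the RAB5A library had 1.15 Mb less than the control library (-1.15 Mb), and with ab8898 it had 0.2 Mb more. With a single library per condition and antibody, this contrast was not tested. The gene NRG3, at 100% in the control ab176916 library and at 0% in the other 3, gave -1.11 Mb of the first value, and KAZN added 0.2 Mb with each antibody.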

How the results depend on the processing

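Of 56 values under alternatives, 43 were classed as the same, 8 as moved and 5 as reversed in sign. These classes do not follow the size of the change alone. A length difference of -1.32 Mb was classed as the same and one of -1.15 Mb as moved. No p of this design can fall below 0.333, so the p-values say nothing about stability. Dropping the lowest-scoring quartile of domains from each list turned the length difference from -0.473 to 2.12 Mb and the difference in genes met from -1 to 1. The filter removed the KAZN and PTPRD domains from both control lists and kept them in both RAB5A lists, and removed the PTPRN2 domain from both ab8898 lists. Leaving out NRG3 or single libraries was chosen after seeing the data. Without NRG3 the length difference was 0.0834 Mb. Without antibody ab176916 (replicate 1) it was 0.2 Mb and without the RAB5A ab176916 library 0.0644 Mb. Leaving out a replicate or a single library gave -1.15 to 0.2 Mb, -2 to 0 for genes met and 5 to 6 for partly covered genes. With a minimum length of 1 Mb, 4 genes were partly and 49 never covered, and with 500 kb 13 and 270, since fewer or more genes enter. The condition differences were -0.456 Mb and -0.5 genes met with 1 Mb, and -1.32 Mb and -2.5 genes met with 500 kb. With 500 kb, p was 0.333 for both by the exact permutation test, the smallest possible. Wholly covered genes numbered 10 to 16 throughout. With the replicate block, pairing by antibody, the differences were -0.473 Mb and -1 gene (exact sign-flip test, p = 1 for both, where the smallest possible is 0.5), and the block changed no call.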
